A study of Mus musculus with 16 samples.

Results

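The Hox cluster genes are the members of the 4 mouse Hox clusters whose symbols are Hoxa, Hoxb, Hoxc or Hoxd followed by digits only. Of the 38 genes listed, 28 had a window of the deposited table with its midpoint within 650 bp of the transcription start site (TSS), among 38053 distinct windows in all. The accessible regions that lie inside the 4 clusters numbered 83 of 127646. Membership rests on gene names and positions and used no measured value.

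Open chromatin was profiled by ATAC-seq, a method that uses a transposase to cut and tag accessible DNA. All libraries came from mouse embryonic stem cells of the genotype FOXD3-iKO in L2i medium, in which 4HT (4-hydroxytamoxifen) induces depletion of FOXD3. FOXD3 is a forkhead protein known from stem cells and the neural crest. Cells given 4HT were compared with EtOH controls of the same genotype at 24 h, after sorting on DAPI-stained DNA content into the fractions named G1, ES, LS and G2. Each of these 8 groups held 2 libraries, 16 in all, and is represented by 1 deposited column that pools them, so single values below carry no SD. The labels do not say whether the line is 1 clone, and the signal does not measure FOXD3 itself, so its loss was not checked here.

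Hox genes encode homeodomain transcription factors that give cells their position along the body axis. Their order along each cluster matches the order in which they are used from head to tail, with low-numbered genes used first and anteriorly and high-numbered genes later and posteriorly. In embryonic stem cells the clusters are known as targets of Polycomb repression and are held silent until differentiation signals such as retinoic acid arrive.

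The signal is coverage per M reads taken as a mean of only the covered bases, so its smallest value in a column is the worth of 1 read. Values are given as multiples of that 1-read value, and a level is the mean multiple over the 8 columns. The columns had an implied depth of 6.78 to 11.2 M reads, with 4HT in G1 the shallowest and EtOH in G2 the deepest, and a multiple rises with depth. In pooled cells, a site open in fewer cells and a site less open in each cell cannot be told apart. The windows of 12 markers of pluripotent stem cells had a median level of 1.72, with Pou5f1 at 2.65, against 1.19 for 9 windows of fibroblast markers, 1.35 for 6 of neural markers and 1.37 for 6 of mesendoderm markers. All of these windows had a read in every column. The treatment test covered 10 of the pluripotent, 3 of the fibroblast, 4 of the neural and 5 of the mesendoderm windows, and no marker passed.

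The Hoxa cluster spans chr6:52162417-52260880 on the minus strand, in mm10 coordinates. The Hoxb cluster spans chr11:96194316-96368254, Hoxc chr15:102921131-103036856 and Hoxd chr2:74668225-74765142, all on the plus strand. A window was found for 6 of 10 Hoxa genes, 7 of 10 Hoxb, 7 of 9 Hoxc and 8 of 9 Hoxd genes. The members just inside the distance limit were Hoxb6 at 488 bp and Hoxa11 at 554 bp, and those just outside were Hoxc4 at 689 bp, Hoxa2 at 693 bp and Hoxc9 at 743 bp. The other genes without a window were Hoxa6, Hoxa7, Hoxa9, Hoxb4, Hoxb5, Hoxb7 and Hoxd10, at 951 to 3431 bp. Windows are 5000 bp long, so neighbouring genes can share DNA. In the annotation used, Hoxa3, Hoxb3 and Hoxd3 start upstream of higher-numbered neighbours (Hoxa6, Hoxa5 and Hoxa4, Hoxb4, and Hoxd4), so their windows lie away from the shorter transcripts of these genes.

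The upstream 250 bases of 4 genes are shown. Among members with a sequence, the promoter with the highest window level is set beside that with the lowest. Both are set beside the 2 promoters that lie wholly inside an accessible region within a cluster. The promoters of Hoxa13 and Hoxd13, not shown, also lie wholly inside regions, but these cross the outer edge of a cluster. The sequences are from RefSeq (GRCm38.p6), which held a promoter for 22 of the 38 genes. Capitals mark CG dinucleotides, the sites of DNA methylation. Hoxa10, at chr6:52240855-52241104 on the minus strand, had the highest window level among the genes with a sequence. Hoxd4, at chr2:74721728-74721977, had the lowest. Hoxd10, at chr2:74691641-74691890, and Hoxd1, at chr2:74762730-74762979, lay inside accessible regions with levels of 1.40 and 1.31.
Hoxa10: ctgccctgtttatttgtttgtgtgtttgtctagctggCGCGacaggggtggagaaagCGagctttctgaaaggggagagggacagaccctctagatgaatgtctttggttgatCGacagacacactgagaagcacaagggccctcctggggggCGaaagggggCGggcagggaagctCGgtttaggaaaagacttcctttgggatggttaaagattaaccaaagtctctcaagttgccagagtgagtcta
Hoxd4: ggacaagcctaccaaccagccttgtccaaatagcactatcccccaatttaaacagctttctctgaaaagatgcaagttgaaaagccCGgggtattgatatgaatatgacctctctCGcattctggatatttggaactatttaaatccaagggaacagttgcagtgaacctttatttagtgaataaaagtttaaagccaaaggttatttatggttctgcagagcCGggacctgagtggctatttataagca
Hoxd10: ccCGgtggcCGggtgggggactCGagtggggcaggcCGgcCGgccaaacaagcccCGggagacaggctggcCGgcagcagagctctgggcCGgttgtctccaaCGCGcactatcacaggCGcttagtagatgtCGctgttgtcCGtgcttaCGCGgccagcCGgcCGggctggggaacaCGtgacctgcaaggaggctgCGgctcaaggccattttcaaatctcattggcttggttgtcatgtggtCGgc
Hoxd1: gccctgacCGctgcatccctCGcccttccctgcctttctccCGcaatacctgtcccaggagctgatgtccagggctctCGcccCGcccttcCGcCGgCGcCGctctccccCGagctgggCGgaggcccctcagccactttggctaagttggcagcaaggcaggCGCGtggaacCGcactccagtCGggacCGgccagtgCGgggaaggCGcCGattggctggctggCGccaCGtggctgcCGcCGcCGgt

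The CG count of these stretches was 7 in Hoxa10 and 3 in Hoxd4, against 20 in Hoxd10 and 24 in Hoxd1. Over 300 bp around the TSS, the 22 Hox promoters had a median of 13.5 CG dinucleotides and 56.8% G or C, against 7 and 52.7% over 27018 promoters, 1 per gene. Their range was wide, from 4 CG dinucleotides in Hoxa9, Hoxd4 and Hoxd11 to 45 in Hoxa13. A ratio of observed to expected CG of at least 0.6 was found in 10 of 22 Hox promoters (45.5%) and in 36.5% of all. Across the 15 genes with both a promoter sequence and a window, the CG count and the level had a Pearson r of -0.15 and a Spearman rho of -0.04, and these genes share libraries and, in part, neighbouring DNA. Hoxa13, with the most CG dinucleotides, stood at a level of 1.19, and Hoxa10, with 12, at 1.39.

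Forkhead factors bind sites with the core TGTTTAC or TGTTTAT. Searched on both strands of the same 300 bp, TGTTTAC was in 0 of 22 Hox promoters and in 3.55% of all promoters. The core TGTTTAT was in 2 of 22 (9.09%), Hoxa10 and Hoxb8, and in 4.6% of all. In the printed Hoxa10 stretch it starts 244 bases before the TSS. The CCAAT box, read as CCAAT on either strand, was in 14 of 22 Hox promoters (63.6%) and in 37.9% of all. The E box CACGTG was in 4 of 22 (18.2%) and in 7.24% of all, and the 4 are the Hoxd genes Hoxd1, Hoxd4, Hoxd10 and Hoxd13. The GC box GGGCGG was in 9 of 22 (40.9%) against 35.9%, and the TATA box TATAAA in 3 of 22 (13.6%) against 14.2%. These letter matches are descriptions and were not tested.

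The clusters also carry microRNA genes, whose products repress Hox messages among other targets. Their mature 5p forms are shown because they fall into 2 seed families spread over the clusters. Capitals mark the seed, bases 2 to 8. The genes of miR-10a and miR-10b lie in Hoxb and Hoxd, those of miR-196a in Hoxb and Hoxc, and that of miR-196b in Hoxa.
miR-10a-5p: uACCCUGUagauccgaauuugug
miR-10b-5p: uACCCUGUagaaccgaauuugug
miR-196a-5p: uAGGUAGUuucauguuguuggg
miR-196b-5p: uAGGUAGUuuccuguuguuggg

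The windows of these microRNA genes had levels within the range of the Hox genes, but not all are separate windows. That of Mir10a is also the window nearest Hoxb4, and that of Mir196b the window nearest Hoxa9. Mir10a stood at 1.29 and Mir10b at 1.24, Mir196a-1 at 1.23, Mir196a-2 at 1.34 and Mir196b at 1.25. Mir615, which has another seed and lies in the Hoxc5 gene, stood at 1.43, and its window overlaps that of Hoxc5.

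The median window level of the Hox genes was close to that of all windows and below that of protein-coding genes, and 1 gene stood apart. The 28 member windows had a median level of 1.27 (range 1.12 at Hoxb6 to 2.15 at Hoxc13), against 1.26 for all 35559 windows with a read in every column and 1.35 for the 18239 of protein-coding genes. All 28 member windows had a read in every column. A level of at least 1.3 was reached by 9 of 28 members (32.1%), by 43.1% of all windows and by 57.4% of those of protein-coding genes. Without Hoxc13 the highest level was 1.43, at Hoxb9. The 10 genes without a window by the rule had levels of 1.15 to 1.38 in their nearest window.

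By cluster, the median level was 1.33 for Hoxc, 1.28 for Hoxb, 1.25 for Hoxa and 1.25 for Hoxd. Of the 8 Hoxd genes, 0 reached 1.3 and the highest, Hoxd1, stood at 1.27, while 5 of 7 Hoxc genes reached 1.3. Along the axis of use, anterior genes (groups 1 to 3, 6 genes) had a median of 1.27, central genes (groups 4 to 8, 9 genes) 1.22 and posterior genes (groups 9 to 13, 13 genes) 1.28. Over the 28 genes, the level and the group number had a Pearson r of 0.28, which was 0.10 without Hoxc13. As the plot of member signal by cluster shows, the column ranges of the other 27 genes all overlapped one another.

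**Figure D1:**
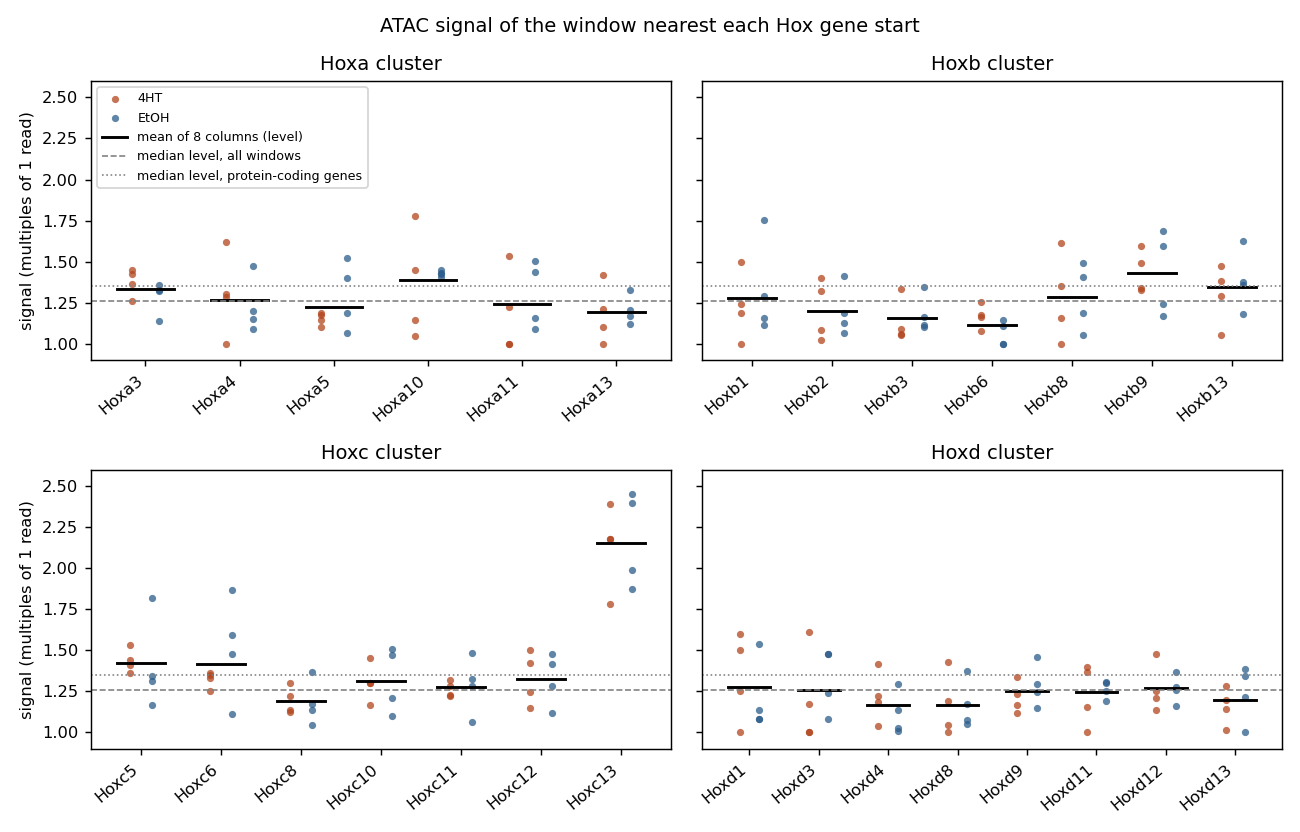
ATAC signal in the window of each of the 28 Hox genes, in multiples of the 1-read value (vertical axis), by cluster and in order of group number; points are the 4 fractions under 4HT (brown) and EtOH (blue), black bars the mean of the 8 columns, and the dashed and dotted lines the median level of all windows (1.26) and of protein-coding genes (1.35). Hoxc13, at 2.15, is the 1 gene whose 8 points all lie above both lines by a clear margin, and the points of the other genes overlap.

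Hoxc13, which directs hair and nail formation, is the most 5′ gene of its cluster. Its window signal was 2.18 in G1, 1.78 in ES, 2.39 in LS and 2.18 in G2 under 4HT. Under EtOH it was 1.87, 1.99, 2.40 and 2.45 in the same order. The treatments overlapped, all 8 columns lay above the highest level of any other member, and the window ranked above 95.4% of all windows and 93.1% of those of protein-coding genes. Coverage over all bases of the window was also estimated, taking reads as spread evenly at random across it, which was not checked. The estimate was 1.79 reads per base for Hoxc13 and 0.753 for Hoxb9, the next member.

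In the Hoxc cluster, Hoxc5 and Hoxc6, central genes used in the neck and trunk, came next at 1.42 each. Hoxc5 was at 1.36, 1.53, 1.41 and 1.44 under 4HT in the order G1, ES, LS, G2, and at 1.35, 1.31, 1.16 and 1.82 under EtOH. Hoxc6 was at 1.25, 1.36, 1.33 and 1.35 under 4HT, and at 1.48, 1.6, 1.11 and 1.87 under EtOH. In both genes the EtOH columns were the more scattered, low in LS and high in G2, and in multiples they enclosed the 4HT columns. Hoxc8, a central gene of the thorax, was the lowest of the cluster at 1.19, with 1.14, 1.3, 1.12 and 1.22 under 4HT and 1.37, 1.05, 1.14 and 1.17 under EtOH.

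In the Hoxb cluster the highest genes were Hoxb9, a trunk gene, at 1.43 and Hoxb13, the most 5′ gene, active in tail bud and prostate, at 1.34. Hoxb9 was at 1.33, 1.59, 1.49 and 1.34 under 4HT and at 1.24, 1.59, 1.17 and 1.69 under EtOH. Hoxb13 was at 1.06, 1.38, 1.47 and 1.29 under 4HT and at 1.37, 1.36, 1.18 and 1.63 under EtOH. For both, the treatments overlapped and the order of the fractions differed between them. Hoxb6, the lowest member in all, was at 1.16, 1.08, 1.26 and 1.18 under 4HT and at 1.11, 1.14, 1 and 1 under EtOH, so that 2 of its columns stood at the 1-read value.

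In the Hoxa cluster the highest was Hoxa10, which patterns the uterus and hindlimb, at 1.39. It was at 1.14, 1.78, 1.45 and 1.05 under 4HT and at 1.45, 1.43, 1.40 and 1.42 under EtOH. Its 4HT columns were spread widely around near-equal EtOH columns. Hoxa3, an anterior gene of the pharyngeal arches, stood at 1.33, with 1.26, 1.45, 1.42 and 1.36 under 4HT and 1.32, 1.33, 1.14 and 1.36 under EtOH. Hoxa13, the most 5′ gene, used in digits and genital tubercle, was the lowest at 1.19, with 1, 1.10, 1.42 and 1.21 under 4HT and 1.33, 1.12, 1.17 and 1.2 under EtOH.

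The Hoxd cluster was the most even, with levels of 1.17 to 1.27. Hoxd1, the most 3′ gene, was at 1, 1.6, 1.25 and 1.5 under 4HT and at 1.13, 1.08, 1.08 and 1.54 under EtOH. Hoxd12, a limb gene, was at 1.25, 1.14, 1.48 and 1.21 under 4HT and at 1.26, 1.37, 1.16 and 1.28 under EtOH. Hoxd4, the lowest, was at 1.22, 1.04, 1.42 and 1.19 under 4HT and at 1.14, 1.03, 1.01 and 1.29 under EtOH. No fraction was high in all 3 genes, and the treatments overlapped in each.

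The first comparison asked whether FOXD3 depletion changed accessibility at Hox promoters. No Hox window passed the test, among the 9 that met the minimum level of 1.3 (Hoxa3, Hoxa10, Hoxb9, Hoxb13, Hoxc5, Hoxc6, Hoxc10, Hoxc12 and Hoxc13). The percentage of all 15323 tested windows called was 0.0131%, so a count of 0 among 9 does not set the Hox genes apart. The test was limma on log2(signal + 0.1) with terms for treatment and fraction and Benjamini-Hochberg adjustment at 0.05, and the smallest adjusted p of a member was 0.971. At an unadjusted p of 0.05, 0 of the 9 passed, against 5.28% of all tested windows. These p-values reflect how pooled columns vary and say nothing of the variation between cultures.

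The median difference of the 9 windows, 4HT minus EtOH on the log2(signal + 0.1) scale, was 0.01, with 6 above 0, and that of all tested windows was 0.00. The largest were Hoxc6 at -0.09 (SE 0.08), Hoxa3 at 0.06 (SE 0.07) and Hoxa10 at -0.06 (SE 0.08). Hoxc13, the most accessible promoter, differed by 0.02 (SE 0.11), with 0.33 in G1 and -0.15 in both ES and LS. The 9 passed the minimum over all columns, and the other 19 members, at levels of 1.12 to 1.28, were read but not tested. When all 28 were fitted with no minimum level, 0 passed and the smallest adjusted p in limma was 0.956. In deposited signal, the 4HT columns lay wholly above the EtOH columns in 0 of 28 members and wholly below in 0, and the shares of all windows were 0.481% and 0.121%.

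Within single fractions no test was possible, since each holds 1 column per treatment. More members were higher than lower under 4HT in LS, 20 of 28 with a median difference of 0.07, against 49.0% of all windows. In the other fractions 11 of 28 were higher in G1, 11 in ES and 13 in G2, with medians of -0.05, -0.03 and -0.02. In the LS pair the 4HT column was the deeper, at 11.1 against 8.17 M reads, and the part of depth in the LS count was not tested. The member median in LS was 1.41 under 4HT and 1.13 under EtOH, and that of all windows 1.33 and 1.23. The range ran from -0.43 at Hoxb1 to 0.34 at Hoxc13 in G1, and from -0.19 at Hoxd13 to 0.28 at Hoxb8 in LS. Hoxa3 was the 1 member of 28 (3.57%) with the same sign in all 4 fractions, higher under 4HT, against 12.6% of all windows with 1 sign.

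**Figure D2:**
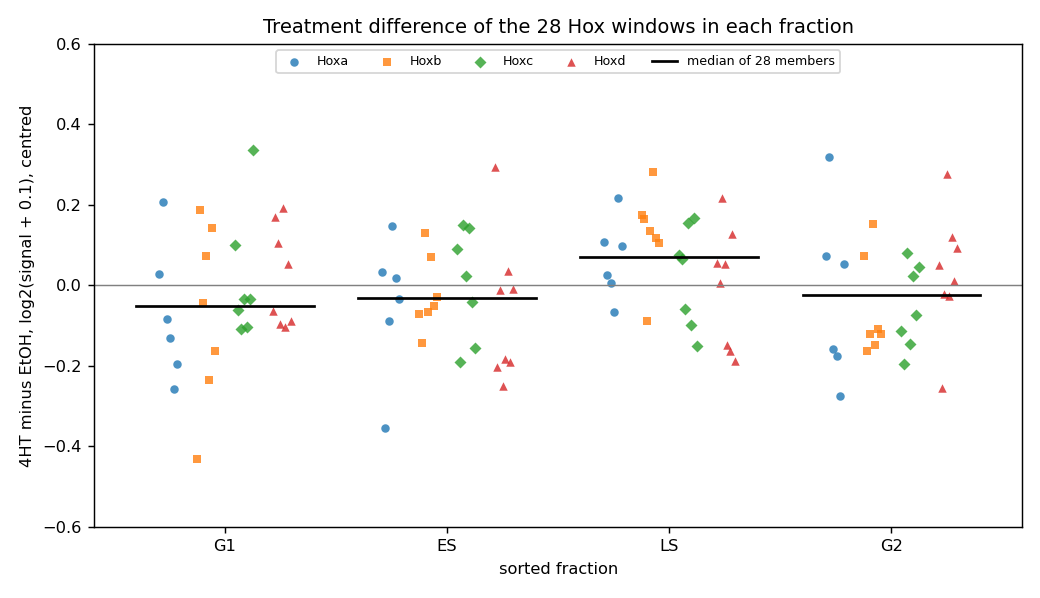
Difference 4HT minus EtOH of centred log2(signal + 0.1) (vertical axis) in each sorted fraction (horizontal axis) for the windows of 28 Hox genes, 1 point per gene, marked by cluster, with the median as a black bar. The points straddle 0 in every fraction, and the median lies at -0.05, -0.03, 0.07 and -0.02 in G1, ES, LS and G2.

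The second comparison asked whether Hox promoters differ between fractions of the cell cycle, each set against G1 over both treatments. No Hox window passed in any of the 3 contrasts, with 9 tested in each, and 0 reached an unadjusted p of 0.05. Of all tested windows 0.0196% were called for ES, 0.0718% for LS and 0.0457% for G2, and the smallest adjusted p of a member in limma was 0.810, 0.855 and 0.944. In ES, the largest differences were Hoxa10 at 0.17 (SE 0.11), Hoxb9 at 0.16 (SE 0.11) and Hoxc12 at 0.11 (SE 0.11). In LS they were Hoxc6 at -0.14, Hoxc10 at -0.11 and Hoxc5 at -0.09, all with an SE of 0.11. The other tested Hoxc genes, Hoxc12 and Hoxc13, were each at 0.02 in LS. In G2 the largest differences were Hoxb13 at 0.11, Hoxa10 at -0.10 and Hoxc10 at -0.09, again with an SE of 0.11. Hoxc10 is a hindlimb and lumbar gene, and Hoxc12 lies nearer the posterior end of the cluster. The members' median difference was 0.05 in ES, -0.03 in LS and 0.04 in G2.

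Accessible regions were dense in the clusters, and few of them were strong. The 4 clusters held 17.1 regions per 100 kb, against 4.81 over all chromosomes. The density was 28.9 in Hoxd, 21.3 in Hoxa, 17.3 in Hoxc and 8.05 in Hoxb. Of the 83 regions, 28 (33.7%) had a read in all 8 columns, against 30.4% of all regions, and the median level of these was 1.46 against 1.61. Over all regions, with no read as 0, the order was the other way, with a median of 1.19 in the clusters against 1.005. A level of at least 2 with a read in every column was reached by 1 of 83 (1.2%), against 8.63% of all regions. Hoxd combined the highest density with the lowest median, 0.859 when no read counts as 0, and Hoxc had the largest share read in all columns, 11 of 20.

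Within 1000 bp of a member TSS lay 36 of the 83 regions, and 10 covered one. Another 4 regions cross the outer edge of a cluster, over the TSS of Hoxa13, Hoxb13, Hoxc13 and Hoxd13, so that 14 of 38 TSSs were covered. The median level, with no read as 0, was 1.26 within 1000 bp and 1.10 beyond. By cluster it was higher within 1000 bp in Hoxa, Hoxb and Hoxd, and lower in Hoxc, at 1.32 against 1.38. Hoxa2, Hoxa6, Hoxa9, Hoxa11, Hoxb1, Hoxb2, Hoxb3, Hoxb6, Hoxb7, Hoxc12 and Hoxd4 had no region within 1000 bp of the TSS.

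**Figure D3:**
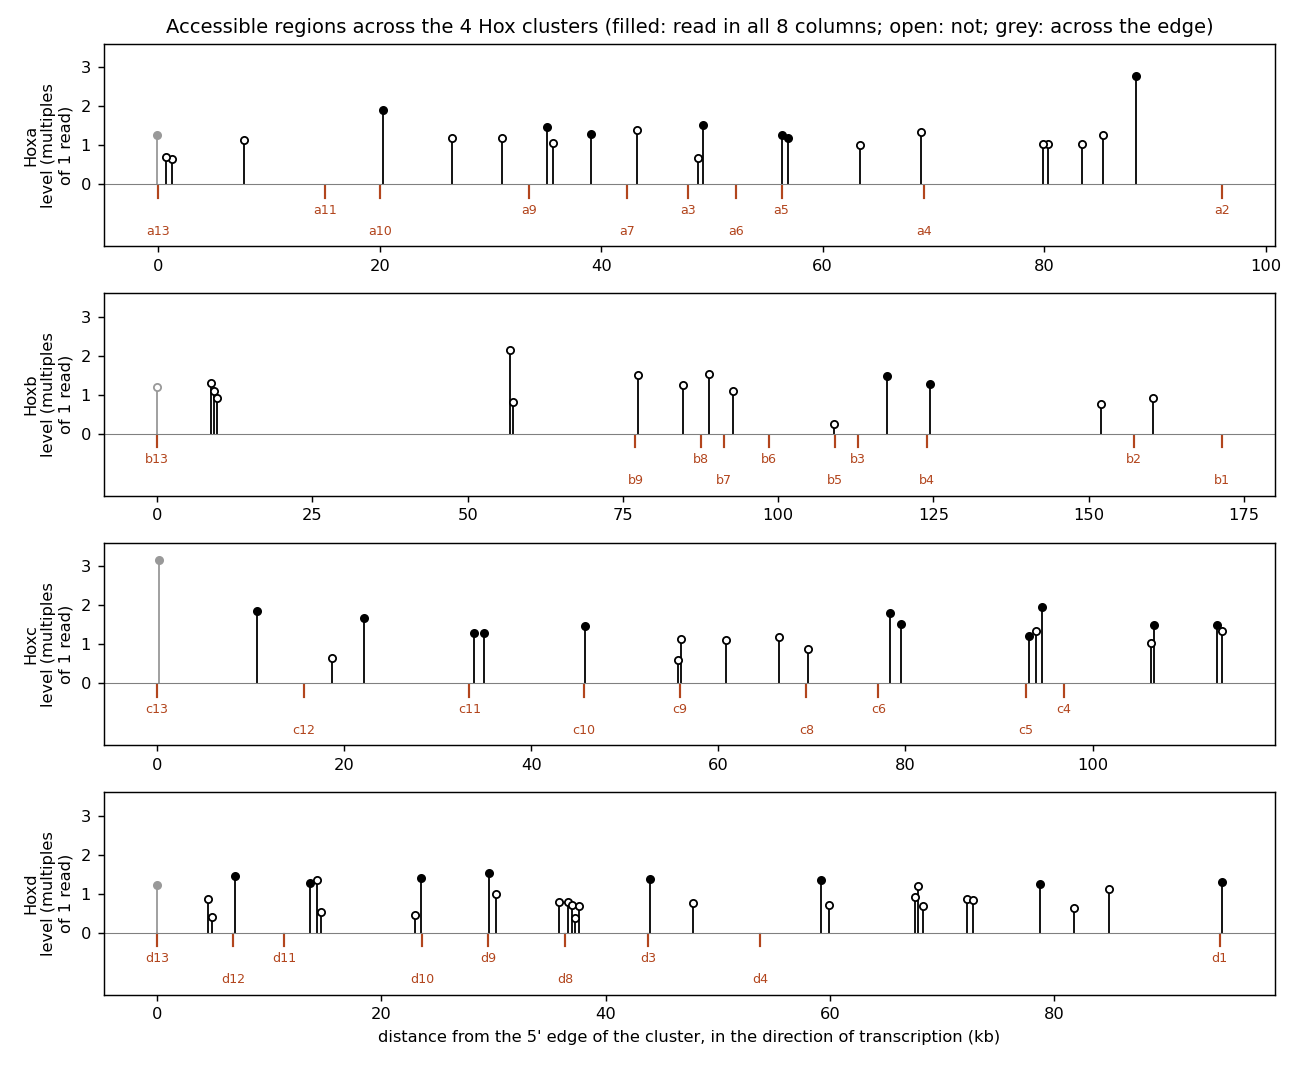
Level of each accessible region, in multiples of the 1-read value with no read as 0 (vertical axis), against distance in kb from the 5′ edge of its cluster in the direction of transcription (horizontal axis); filled points were read in all 8 columns, open points were not, grey marks a region across the edge, and red ticks are the annotated starts of the genes. The region over the Hoxc13 start (3.15) and that in the Hoxa3 gene (2.77) are the highest.

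The strongest region at the clusters covered the Hoxc13 TSS, at chr15:102920602-102922188, 1587 bp long, with a level of 3.15, above 97.7% of all regions. It was at 3.19, 2.41, 3.37 and 3.73 under 4HT in the order G1, ES, LS, G2, and at 2.34, 2.78, 3.43 and 3.98 under EtOH. The 2 treatments overlapped, and the difference was 0.09 (SE 0.21, adjusted p 0.990 in limma). The regions over the TSSs of Hoxa13, Hoxb13 and Hoxd13, the genes of the same group, had levels of 1.26, 1.21 and 1.21.

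Inside the clusters the strongest region lay in the Hoxa3 gene span, at chr6:52172409-52172789. It is 92 bp from Gm15050, a long non-coding RNA gene, and 7578 bp from the Hoxa2 TSS, and the gene table used does not resolve exons and introns. Its signal was 1.87, 2.62, 1.84 and 4.14 under 4HT and 2.30, 4.34, 2.70 and 2.37 under EtOH. The highest column was G2 under 4HT and ES under EtOH, and the treatments overlapped. It was the 1 region of 83 that met the minimum for the test, and it passed in none of the 4 contrasts. The treatment difference was -0.08 (SE 0.25, adjusted p 0.991 in limma), and turned to 0.11 without the ES fraction and to 0.09 without LS. Against G1 it differed by 0.47 (SE 0.35) in ES, -0.16 in LS and 0.21 in G2. Of the 11010 regions tested, 0% were called for treatment, ES and LS and 0.0182% for G2.

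The second Hoxa region lay in the Hoxa10 gene, 180 bp from its upstream TSS, at chr6:52240459-52240674, with a level of 1.90. It was at 1, 2.56, 1.28 and 1.04 under 4HT and at 3.01, 2.69, 2.20 and 1.42 under EtOH. Each EtOH column exceeded the 4HT column of its fraction, in multiples and in deposited signal, and the 2 ranges overlapped. In Hoxc the highest were chr15:103015547-103015807, in the Hoxc5 gene and 546 bp from Mir615, at 1.96, and chr15:102931534-102932120, between Hoxc13 and Hoxc12, at 1.85. The first was at 3.25, 1.58, 1.48 and 1 under 4HT and at 1.65, 2.23, 1.12 and 3.39 under EtOH. The second was at 1.56, 1.17, 2.82 and 1.45 under 4HT and at 1.21, 1.5, 1.49 and 3.6 under EtOH. In these, G2 was the highest EtOH column, which is the deepest, and no fraction was high under both treatments.

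In Hoxd the highest region covered the Hoxd9 TSS, at chr2:74697546-74698115, with a level of 1.52. It was at 1, 1.49, 1.27 and 1 under 4HT and at 1.39, 2.37, 1.78 and 1.90 under EtOH. Each EtOH multiple exceeded the 4HT multiple of its fraction, but in deposited signal 4HT was the higher in G1, at 0.147 against 0.1395. The next, chr2:74675032-74675255 beside the Hoxd12 TSS, stood at 1.46, with 1.68, 1, 1.82 and 1 under 4HT and 1.91, 1.48, 1 and 1.82 under EtOH. In Hoxb, 2 regions were read in every column. The first, chr11:96311679-96312024 in the Hoxb3 gene span, stood at 1.48, with 1, 2.59, 1.27 and 1 under 4HT and 1.75, 1, 1.32 and 1.94 under EtOH. The second, 310 bp from the Hoxb4 TSS, chr11:96318577-96319003, stood at 1.28, with 1.21, 1, 1.07 and 1.47 under 4HT and 1.58, 1.04, 1 and 1.87 under EtOH. These 3 had columns of both treatments at the 1-read value.

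In deposited signal, with no read as 0, the treatments did not overlap in 5 of the 83 regions. In 2 of them 4HT was lower, against 0.874% of all regions, and in 3 it was higher, against 1.10% of all regions. The largest difference between the treatment means, in multiples, was at chr11:96250982-96251241, between Hoxb13 and Hoxb9, with 1.25 under 4HT and 3.06 under EtOH. It lies 20089 bp from the Hoxb9 TSS and 419 bp from Gm53, a long non-coding RNA gene. It had no read in G1 and 2.36, 1 and 1.63 in ES, LS and G2 under 4HT, and 4.12, 2.996, 2.41 and 2.72 under EtOH. All 4 EtOH columns lay above all 4HT columns, in deposited signal by 0.243 (EtOH in G2) against 0.242 (4HT in ES) at the closest, and the column without a read was the shallowest of the 8. It was left out of the test for that column, and with no read as 0, an alternative chosen after seeing the data, the difference was -1.04 (SE 0.39, unadjusted p 0.018, adjusted p 0.875 in limma).

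The other region lower under 4HT was chr15:102987469-102987755, upstream of Hoxc8, with no read in G1 and 1 in ES, LS and G2 under 4HT, and 2.30, 1.36, 1 and 1.89 under EtOH. In LS under EtOH it stood at 1 read, which is worth more there (signal 0.122) than in the 4HT columns that had a read. The 3 regions higher under 4HT, in the gene spans of Hoxd8, Hoxd3 and Hoxa3, each stood at 1 in G1, ES and LS and at 1.35 to 1.57 in G2 under 4HT, with 1 in G2 and no read elsewhere under EtOH. They are at most 129 bp long and rest on single reads in most columns, and the 1-read value of EtOH in G2 is the smallest of all columns (signal 0.0895).

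**Figure D4:**
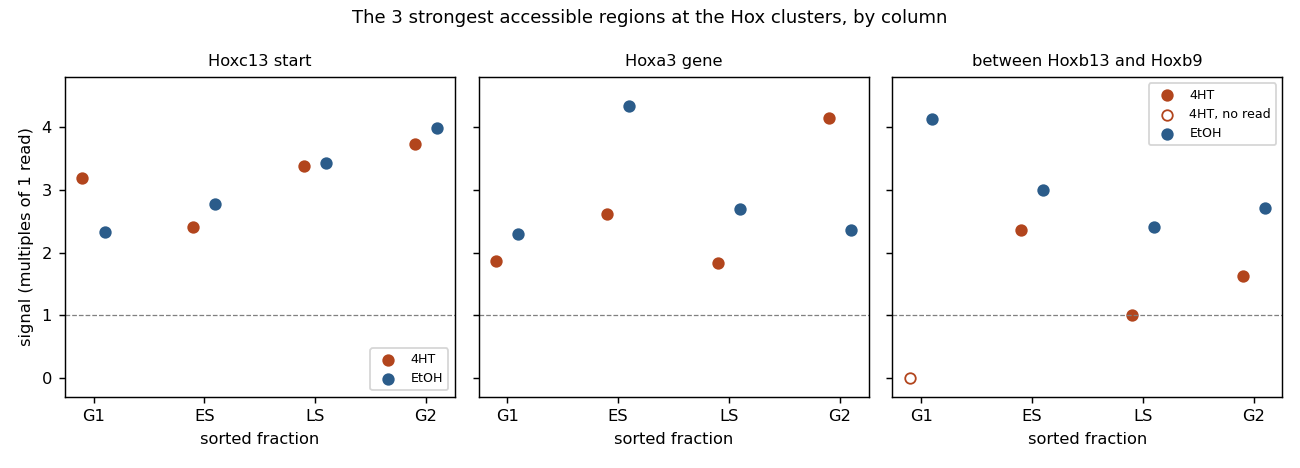
Signal in multiples of the 1-read value (vertical axis) of the 3 strongest accessible regions at the Hox clusters in each sorted fraction (horizontal axis), with 4HT in brown, EtOH in blue, an open point for a column without a read and a dashed line at 1 read. At the Hoxc13 start and in the Hoxa3 gene the treatments overlap, and between Hoxb13 and Hoxb9 all EtOH points (2.41 to 4.12) lie above the 4HT points (up to 2.36).

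The genes that work with, regulate or flank the Hox genes were compared from lists. Of the Polycomb genes, which keep Hox genes silent, 18 of 22 were tested for treatment and 0 passed in either direction, with a median difference of 0.01 and a median level of 1.54. The largest difference was Ezh2, the methyltransferase of Polycomb complex 2, at -0.22 (SE 0.10, adjusted p 0.942 in limma). Of the Trithorax genes, which counter Polycomb, 10 of 10 were tested and 0 passed, with a median level of 1.64. Kdm6a, which removes the Polycomb mark, was at -0.15 (SE 0.09).

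Of the TALE cofactors, which bind DNA with Hox proteins, 5 of 9 were tested and 0 passed, with a median level of 1.37. Pknox1 had the largest treatment difference, at -0.19 (SE 0.11). Of the Cdx and ParaHox genes, which include direct activators of Hox genes, 3 of 6 were tested and 0 passed, and Gsx1 was at -0.16 (SE 0.08). Of the retinoic acid pathway, 8 of 13 were tested and 0 passed, and Crabp1, a retinoic acid binding protein, was at 0.11 (SE 0.09). Evx1, the homeobox gene next to Hoxa13, was the 1 of 2 Evx genes tested and was at 0.01 (SE 0.08). The median levels of the last 3 lists were 1.32, 1.35 and 1.34.

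The genes that flank the clusters had a median level of 1.33 over 7 windows. Some of them were among the most accessible windows of the neighbourhood. Skap2, an adaptor protein gene beyond the 3′ end of Hoxa, stood at 2.45, Hibadh, a metabolic enzyme gene beyond its 5′ end, at 2.09, and Calcoco1, beyond the 5′ end of Hoxc, at 1.89. These 3 lie above every Hox window but that of Hoxc13, which lies above Calcoco1 and Hibadh. Of the 8 flanking genes 6 were tested and 0 passed for treatment, and Calcoco1 was the largest at 0.20 (SE 0.10). Of 17 RNA genes in the clusters, 4 were tested, 0 passed, and Mir615 was the largest at 0.06 (SE 0.08). The median level was 1.27 over 15 windows, some of which are also the window nearest a Hox gene, as for Mir10a and Mir196b. In the 3 fraction contrasts 0 genes of these 8 lists passed as well, and the smallest adjusted p in limma was 0.346, in the retinoic acid list for ES.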

How the data were processed

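Chromatin accessibility was taken from 2 deposited tables of signal, 1 of accessible regions and 1 of 5000 bp windows around TSSs, with 1 column for each of 8 groups. The authors' signal is coverage in CPM averaged over covered bases, as read from the values: intervals without a read have no value, and the smallest value of a column is that of 1 read. The submitters' processing notes give mm10 as the build and name featureCounts and DESeq2 without saying what each did. The aligner and the coverage program are not given in the sources used here.

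Each Hox gene was given the window whose midpoint was nearest its TSS and within 650 bp, from a RefSeq gene table of GRCm38.p6. Intervals with a read in all 8 columns and a level of at least 1.3 (windows) or 2 (regions) were transformed as log2(signal + 0.1), which understates changes of weak intervals, and centred by cyclic loess. A model with treatment and fraction was fitted in limma 3.58.1 under R 4.3.3 over the whole table, with 3 residual degrees of freedom, a trend and robust moderation, and adjusted by Benjamini-Hochberg at 0.05. The treatment contrast thus has 4 fractions as repeats, and each fraction contrast 2 treatments. The pipeline was tested on simulated data. Genes named were the 2 highest and the lowest of each cluster, the largest differences of each contrast, the 2 highest regions of each cluster among those read in all 8 columns and the largest treatment difference of each list, and Hoxc13 and the non-overlapping regions were added after their values were seen. The members, lists, tests and minimum levels were chosen with earlier results of these data known. One gene that fits the naming pattern is not reported here.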

Additional observations from a re-analysis of the deposited data

How the results depend on the processing

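No Hox window or region was called in any of the 72 alternative fits of the 8 contrasts that tested a member, and the smallest adjusted p of a member among them was 0.720. The alternatives were a pseudocount of 0.5, no minimum or a higher minimum level, no centring and median-of-ratios scaling. Others were coverage over all bases, estimated as for Hoxc13 above, the omission of single fractions and no read counted as 0. The last was chosen after seeing the data. With the higher minimum of 3, no region inside the clusters was left to test. Over whole tables, called windows ranged from 0 to 4 for treatment (2 as reported), 0 to 4 for ES (3), 0 to 11 for LS (11) and 4 to 8 for G2 (7), and called regions from 0 to 3 for ES (0) and 2 to 3 for G2 (2). Without centring, the median treatment difference of all tested windows was 0.02 and the median G2 difference -0.09.

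Of 147 alternative values of the named windows and regions, 142 kept their direction. The treatment difference of Hoxc13 turned to -0.00065 with median-of-ratios scaling and to -0.087 without G1. The G2 difference of Hoxb13 turned to -0.0049 without centring. That of the Hoxa3 region for treatment turned to 0.11 without ES and to 0.088 without LS. The cause was not tested. The median level of the member windows stayed between 1.24 and 1.29 under 6 alternatives. The median level of the regions was 1.19 with no read as 0, and 1.46 over those with a value in every column, which leaves 28 of 83.

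No paired analysis was possible because the columns pool the libraries of a group and carry no replicate number. A signal averaged over covered bases cannot fall below 1 read, so at 6.78 to 11.2 M reads losses at weak Hox windows were hardly detectable.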
